A study of Mus musculus with 29 samples.

Results

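The T-cell receptor complex and its co-receptors were followed in mouse colon RNA through 10 genes, taken by symbol from a table of 54532 genes: the CD3 chains Cd3e, Cd3d, Cd3g and Cd247, the co-receptors Cd4, Cd8a and Cd8b1, and the costimulatory and signalling genes Cd28, Lck and Cd5. All 10 averaged 3 or more counts per mouse and were among the 18616 genes tested. The question was how these transcripts differ between mice with their own lymphocytes, Rag-deficient mice and Rag-deficient mice given T cells, across 6 models of colitis.

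The libraries came from colon segments of 29 mice in 9 groups. Balb/C mice with their own lymphocytes were untreated wild-type controls (n = 3), mice given 3% DSS in the drinking water for 5 days and culled at day 10 (n = 3), mice given 3 mg of DNBS rectally in 50% ethanol (n = 3), and mice treated with a blocking antibody (n = 4), which the titles name IL10 antibody and the treatment text gives as 750 µg of anti-IL-10R with culling after 4 weeks. These 13 mice are called lymphocyte-replete below. Balb/C Rag2-/- mice were untreated controls (n = 3), and TRUC mice (n = 4) were untreated Balb/C mice lacking both Tbx21 and Rag2, which develop colitis without treatment. Mice labelled C57BL/6 Rag1-/- were untreated controls (n = 3), mice given 50 µg of agonistic anti-CD40 and culled after 7 days (n = 3), and mice given naive CD4+ T cells by injection and culled after 6 to 8 weeks (T-cell transfer, TCT, n = 3). The TCT hosts, unlike the other Rag-deficient mice, were given T cells, from a sorted CD4+ inoculum, and no B cells. The treatment text calls these recipients Rag2-/-, the labels give no ages, and the study's paper describes Il10-/- mice and C57BL/6 wild-type mice where the labels give an antibody and Balb/C. Strain and treatment cannot be told apart wherever TCT mice are set against Balb/C mice. Where TRUC mice are set against Rag2 controls, colitis and the loss of Tbx21 cannot be told apart.

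The T-cell receptor binds antigen through a pair of variable chains but carries no signalling tail of its own. The CD3 epsilon, delta and gamma chains and the zeta chain (Cd247) carry the signal into the cell, where LCK, held by the tails of the co-receptors CD4 and CD8, phosphorylates them. Rag1 and Rag2 encode the recombinase that assembles antigen receptor genes, so T and B cells do not mature without either, whereas innate lymphoid cells do not need it. In the colon the complex therefore marks the T cells of the epithelium, the lamina propria and the lymphoid follicles.

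Total counts ran from 10725564 to 14977094 per mouse (median 12287039), so that 3 counts, the limit that a count of 0 allows, corresponded to between 0.179 and 0.313 CPM, the read count scaled to a common library size after TMM normalisation. The colon markers Epcam (14442 counts or more) and Acta2 (6179 or more) were abundant in every mouse. The targeted genes did not all follow the labels. Rag2 had between 6 and 20 counts in the libraries labelled Rag1 controls and between 48 and 99 in those of anti-CD40 mice, much like the 15 to 25 of Rag2 controls and 57 to 94 of TRUC mice, and 0 in all TCT mice, where Rag1 had 20 to 33 counts against at most 4 elsewhere. Tbx21 had 26 to 52 counts in TRUC mice against 1 to 7 in Rag2 controls. None of these counts says whether the RNA came from an intact allele, and the labelled Rag1 controls are called so throughout. All values come from bulk tissue, in which fewer T cells and less RNA per T cell cannot be told apart, and p-values measure the spread between these mice only.

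The loci are given in GRCm38 with GENCODE M21 gene models. Cd3g (ENSMUSG00000002033, chr9:44969572-44980431, minus strand), Cd3d (ENSMUSG00000032094, chr9:44981786-44987339, plus strand) and Cd3e (ENSMUSG00000032093, chr9:44998740-45009627, minus strand) lie next to each other. Cd3g and Cd3d start 1355 bases apart on opposite strands. Cd8b1 (ENSMUSG00000053044, chr6:71322788-71337494) and Cd8a (ENSMUSG00000053977, chr6:71373427-71379173), both on the plus strand, start 50639 bases apart, and Cd4 (ENSMUSG00000023274, chr6:124864692-124888221, minus strand) is on the same chromosome. Cd28 (ENSMUSG00000026012, chr1:60716800-60773359) and Cd247 (ENSMUSG00000005763, chr1:165788681-165877277) are on the plus strand of chromosome 1, Lck (ENSMUSG00000000409, chr4:129548344-129573641) and Cd5 (ENSMUSG00000024669, chr19:10717116-10739002) on minus strands. Exons of Cd247 share 3007 of their 5329 bases with Pou2f1 on the opposite strand, and no source used here states that reads were counted by strand, so Cd247 values may hold or lack reads of either gene. Cd3e shares 135 bases with an antisense gene, Gm48719.

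RefSeq (GRCm38.p6) start windows were found for 7 of the 10 genes, in 8 windows since Lck has a pair of starts. The windows are given because the genes moved together across the mice. All but those of Cd8a and of the Lck start at chr4:129573642-129573891 are shown. Each line is the 250 bases before a start, in the direction of the gene. Capitals mark the letters AGGAAGT or, on the other strand, ACTTCCT, the core of many ETS-type sites.
Cd3e: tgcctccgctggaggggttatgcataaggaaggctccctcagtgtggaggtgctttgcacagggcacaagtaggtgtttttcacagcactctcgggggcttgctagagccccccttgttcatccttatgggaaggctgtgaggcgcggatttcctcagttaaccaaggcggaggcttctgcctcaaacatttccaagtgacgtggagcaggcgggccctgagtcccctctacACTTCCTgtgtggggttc
Cd3d: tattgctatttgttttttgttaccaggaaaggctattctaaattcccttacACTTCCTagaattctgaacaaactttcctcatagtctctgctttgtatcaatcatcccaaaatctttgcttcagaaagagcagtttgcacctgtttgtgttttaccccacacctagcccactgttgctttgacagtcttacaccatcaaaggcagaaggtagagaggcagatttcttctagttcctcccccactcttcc
Cd3g: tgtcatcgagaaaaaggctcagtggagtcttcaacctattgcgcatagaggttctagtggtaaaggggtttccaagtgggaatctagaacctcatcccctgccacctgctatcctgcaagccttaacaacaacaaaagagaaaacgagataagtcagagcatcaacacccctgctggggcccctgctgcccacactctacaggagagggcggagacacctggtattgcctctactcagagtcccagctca
Cd247: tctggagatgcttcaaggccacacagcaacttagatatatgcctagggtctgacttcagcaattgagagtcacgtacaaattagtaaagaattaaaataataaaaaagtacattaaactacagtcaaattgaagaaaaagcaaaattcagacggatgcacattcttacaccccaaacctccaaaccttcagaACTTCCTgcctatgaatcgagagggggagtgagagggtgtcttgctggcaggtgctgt
Lck: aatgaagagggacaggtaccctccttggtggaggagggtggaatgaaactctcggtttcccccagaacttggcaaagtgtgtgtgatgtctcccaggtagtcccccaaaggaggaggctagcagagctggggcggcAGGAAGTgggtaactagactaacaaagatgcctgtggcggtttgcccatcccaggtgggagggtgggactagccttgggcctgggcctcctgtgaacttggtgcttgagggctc
Cd5: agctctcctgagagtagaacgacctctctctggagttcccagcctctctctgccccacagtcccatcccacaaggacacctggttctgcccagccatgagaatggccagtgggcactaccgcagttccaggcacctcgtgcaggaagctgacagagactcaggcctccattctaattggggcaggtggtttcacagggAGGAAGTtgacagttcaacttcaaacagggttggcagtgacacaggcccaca
The windows are chr9:45009612-45009861 (Cd3e), chr9:44981536-44981785 (Cd3d), chr9:44980432-44980681 (Cd3g), chr1:165788431-165788680 (Cd247), chr4:129558373-129558622 (Lck) and chr19:10738975-10739224 (Cd5). The Cd3g window holds no capitals and is shown because it faces that of Cd3d. The Cd8a window, not shown, holds no match either. The ETS-type letters stood in 6 of the 8 windows, those of Cd3e, Cd3d, Cd247, Cd5 and both starts of Lck, against 7.69% of all 32817 windows. The E-box letters CAGGTG (or CACCTG) stood in 5 of the 8, those of Cd3d, Cd3g, Cd247, Cd5 and 1 start of Lck, against 17.2%. Each of TGTGGT (14% of all windows), AGATAA (9.99%) and CTTTGAT (3.21%), letters of RUNX, GATA and TCF or LEF sites, stood in 1 window, and TATAAA (12.4%) in none, both strands searched. The TGTGGT match lay in the Lck window not shown. The motifs were picked with the sequences known, and these matches describe letters only.

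The lymphocyte-replete mice were compared first with the 13 Rag-deficient mice without transferred cells, as the average of 4 groups against the average of 4 groups. All 10 genes were higher in the replete mice, against 22.1% of all genes tested called higher, and none was lower, against 18.4% (edgeR quasi-likelihood test, Benjamini-Hochberg adjusted p under 0.05). Their log2 differences ran from 1.36 to 6.53 with a median of 4.04, where the median of all genes was -0.01. With Rag2 controls and TRUC mice alone as the Rag-deficient side, all 10 were again higher (17.6% of all genes higher, 13.5% lower). Cd3e, Cd3d, Cd5 and Cd8b1 had at most 17 counts over all 13 Rag-deficient mice, whereas Cd4 had 683, Lck 516 and Cd28 111.

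**Figure D1:**
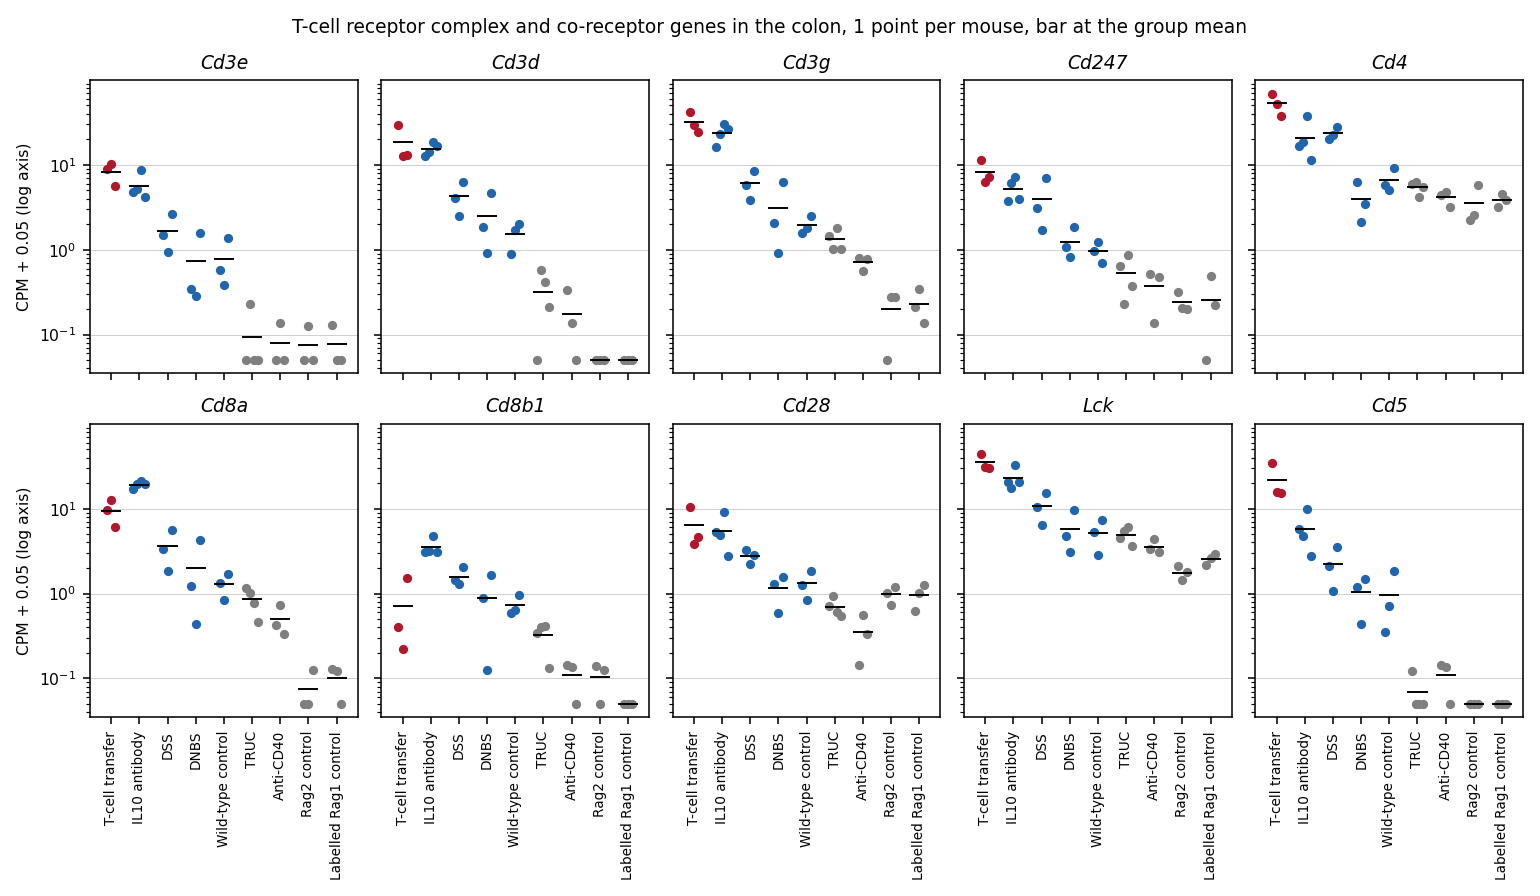
Level of each gene in each mouse as CPM + 0.05 on a log axis, 1 point per mouse and a bar at the group mean, with T-cell transfer in red, lymphocyte-replete groups in blue and Rag-deficient groups without transfer in grey. Cd3e, Cd3d and Cd5 separate all blue and red points from all grey points, while Cd4, Cd28 and Lck keep a level in grey groups, and Cd8b1 is low in T-cell transfer mice.

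Cd3e, the epsilon chain that pairs with both delta and gamma, had no count in 9 of the 13 Rag-deficient mice, and 1, 1, 1 and 2 counts in the others. In the 13 replete mice it had between 3 and 100 counts (median 18). No replete mouse overlapped a Rag-deficient one, and the difference was 5.17 ± 0.51 on the log2 scale (SE, adjusted p = 1.27e-08, edgeR). Cd3d, the delta chain, was at 0 in all 6 untreated Rag controls and had at most 6 counts in TRUC mice, against 11 to 215 counts in replete mice, a log2 difference of 6.53 ± 0.51. Cd5, a scavenger-type receptor that dampens receptor signalling, was at 0 in 10 of the 13 Rag-deficient mice, with 1 count in each of the others, against 4 to 116 counts in replete mice. These 3 genes, of the 10, had no overlap between the 13 and 13 mice, as 1.79% of all genes did in this direction and 1.12% in the other.

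Cd3g, the gamma chain, and Cd247, the zeta chain, which natural killer cells also use, each had a count in 12 of the 13 Rag-deficient mice. Cd3g had between 1 and 19 counts where it was found, and 98 in total against 50 for Cd247, 16 for Cd3d and 5 for Cd3e. Per kb of exon, Cd3g reached 0.39 CPM in TRUC mice (SD 0.113, n = 4), and Cd3d 0.146 (SD 0.129). In replete mice Cd3g had 11 to 348 counts, and the lowest of these lay below the highest TRUC mouse at 19, so the groups overlapped (log2 difference 3.70 ± 0.29, adjusted p = 2.19e-10, edgeR). Cd247 differed by 2.90 ± 0.32 on the log2 scale.

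Among the co-receptors, Cd8a (log2 difference 4.38 ± 0.38) and Cd8b1 (4.50 ± 0.49) had 0 to 15 and 0 to 4 counts in Rag-deficient mice. Cd4, which lymphoid tissue inducer cells and some phagocytes also carry in mice, was present in every Rag-deficient mouse at 25 to 79 counts, and its difference of 1.36 ± 0.20 was the lowest of the 10. Lck, the kinase bound by the co-receptors and present in natural killer and innate lymphoid cells too, had 18 to 65 counts in these mice and a difference of 1.65 ± 0.19. Cd28, the costimulatory receptor for CD80 and CD86, had 1 to 15 counts and a difference of 1.73 ± 0.25. All values are edgeR estimates with SE, each with adjusted p of at most 5.35e-06.

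Untreated mice gave the comparison without colitis. Against Rag2 controls of the same labelled strain, 7 of the 10 genes were higher in wild-type controls and none was lower. Of all genes 4.86% were called higher and 3.25% lower. Against labelled Rag1 controls, whose labelled strain differs too, 6 were higher (6.18% and 4.77%), and strain and genotype cannot be told apart. Cd247, Cd4 and Cd28 did not pass in either comparison and Lck only in the first, but this depended on the test. DESeq2 called Cd247 (adjusted p = 0.0306) and Cd4 (0.0402) against Rag2 controls and Cd4 (0.0372) and Lck (0.0253) against labelled Rag1 controls. Fits of the compared groups alone called Cd247 in both comparisons (edgeR adjusted p = 0.00766 and 0.0395), and Cd4 (0.0444) and Lck (0.0443) against labelled Rag1 controls. Wild-type mice had 11, 25 and 24 counts of Cd3d, and both Rag control groups 0 in every mouse, so Cd3d was at least 18.6-fold higher in wild-type mice, taking 3 counts over the control group. Cd5 was at least 11.2-fold higher by the same bound, with 4, 10 and 22 counts in the wild-type mice. Cd8a had 17, 12 and 20 counts in wild-type mice and 0, 0 and 1 in Rag2 controls, a ratio of 45.7 with a counting interval from 7.83 to 1840.

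Cd28 was nearly level between these untreated groups. Its CPM was 1.22, 0.799 and 1.80 in wild-type mice and 0.973, 0.688 and 1.13 in Rag2 controls, and the groups overlapped. The log2 difference was 0.43 ± 0.50 (adjusted p = 0.696, edgeR). Cd4 was 5.79, 5.06 and 9.10 CPM in wild-type mice and 2.21, 2.52 and 5.66 CPM in Rag2 controls, again with overlap (0.92 ± 0.41, adjusted p = 0.200). All 6 B-cell markers, among them Cd79a, a signalling chain of the B-cell receptor, and Ms4a1, which encodes CD20, were higher in wild-type mice in both comparisons. Against Rag2 controls, Cd3e, Cd8b1 and Lck lost their calls when wild-type mouse 4 or Rag2 control 4 was left out, leaving 4 of 10, and Cd8b1 lost its call without any 1 of the 6 mice.

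All 10 genes were higher in mice given naive CD4+ T cells than in the labelled Rag1 controls, against 16.1% of all genes called higher and 14% lower, and in each of the 10 all TCT mice lay above all controls, as in 21.4% of all genes. These groups differed in their Rag1 and Rag2 counts too, so host genotype and T-cell transfer cannot be told apart here. Cd3e was 8.81, 10.2 and 5.65 CPM in TCT mice 1, 3 and 5, where the controls had 1 count in all, a ratio of 311 with a counting interval from 55.3 to 12300. Cd3d was 29.3, 12.5 and 12.97 CPM, at least 229-fold above the controls. TCT mouse 1 had the highest level of 7 of the 10 genes, and all 10 were also called higher against Rag2 controls (17.4% of all genes higher, 14.6% lower). Cd5 was 34.6, 15.7 and 15.2 CPM, at least 274-fold above controls without a count. Cd4 was 68.9, 51.6 and 38.0 CPM against 3.16, 4.49 and 3.78 CPM (log2 difference 3.79 ± 0.42, adjusted p = 2.82e-07, edgeR).

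Set against wild-type controls, TCT colons held more of 9 of the 10 transcripts (16.9% of all genes called higher, 13.8% lower), with no overlap between the 3 and 3 mice in any of the 9 (23.7% of all genes in this direction). The log2 differences of the CD3 chains were 3.52 ± 0.59 for Cd3e, 3.61 ± 0.58 for Cd3d, 4.05 ± 0.47 for Cd3g and 3.12 ± 0.53 for Cd247. Cd5 differed most, by 4.57 ± 0.61, and Cd4 by 2.99 ± 0.40, Cd8a by 2.93 ± 0.53, Lck by 2.78 ± 0.37 and Cd28 by 2.31 ± 0.45, each with adjusted p of at most 0.000593 (edgeR). Of the other markers, 5 of 7 for mononuclear phagocytes were higher, with all 7 free of overlap, and 3 of 7 for innate lymphoid and natural killer cells were higher and 1 lower. The summed phagocyte markers were 268 to 407 CPM in TCT mice against 99.3 to 128 CPM in wild-type mice. Their part in the result was not tested.

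Cd8b1, the beta chain found in the CD8 alpha-beta heterodimer of conventional cytotoxic T cells, was the exception. It was 0.349, 0.171 and 1.48 CPM in TCT mice and 0.533, 0.599 and 0.902 CPM in wild-type controls. The TCT mice lay on both sides of the controls, with 4, 2 and 16 counts, and the log2 difference was -0.04 ± 0.68 (adjusted p = 0.974, edgeR). Cd8a, whose product also forms homodimers on gut lymphocytes and on some dendritic cells, was 9.69, 12.5 and 6.11 CPM in the same TCT mice, all above the highest control at 1.64 CPM.

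**Figure D2:**
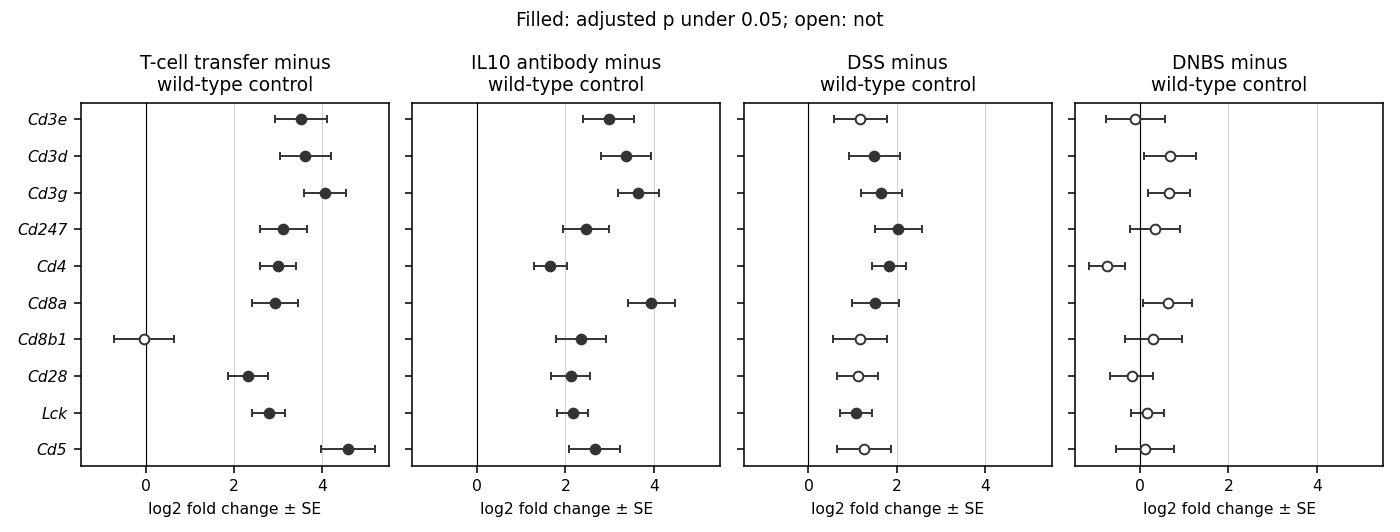
Log2 fold change of each gene against wild-type controls with its SE (bars), in T-cell transfer, IL10 antibody, DSS and DNBS mice, filled where the edgeR adjusted p was under 0.05. Cd8b1 sits at -0.04 after T-cell transfer while the other 9 genes lie between 2.31 and 4.57, and no DNBS value passes.

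Ratios within a library set 1 gene against another at the same depth. The 0.5 CPM added to both genes draws the ratios of low libraries toward 0. The log2 ratio of Cd8b1 to Cd3e was -3.99, -3.46 and -1.63 in TCT mice, below all 13 replete mice, which ran from -0.80 to 0.74. The difference in means was -2.88 (exact permutation test, two-sided, p = 0.00357, adjusted over 6 ratios 0.0214). For Cd8a to Cd3e the TCT mice lay between 0.10 and 0.28 and the replete mice between 0.24 and 2.12, with some overlap (difference -0.89, exact permutation adjusted p = 0.0321). Cd8b1 to Cd8a differed by -1.99 (exact permutation adjusted p = 0.0357), again with overlap, since IL10 antibody mice were down to -2.50.

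Cd4 to Cd3e, by contrast, had a mean log2 ratio of 2.61 ± 0.31 (SD, n = 3) in TCT mice and 2.39 ± 0.89 (SD, n = 13) in replete mice, a difference of 0.22 within the spread (exact permutation adjusted p = 0.679). Cd247 to Cd3e (difference -0.41, adjusted p = 0.373) and Cd28 to Cd3e (-0.83, adjusted p = 0.0804) did not pass the exact permutation test either. The replete mice pool 4 groups whose own ratios differ. Without any 1 of the TCT mice none of the 3 CD8 ratios passed after adjustment, but with 2 against 13 mice the smallest p this exact permutation test can give is 0.019, and the difference for Cd8b1 to Cd3e stayed between -3.58 and -2.40.

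**Figure D3:**
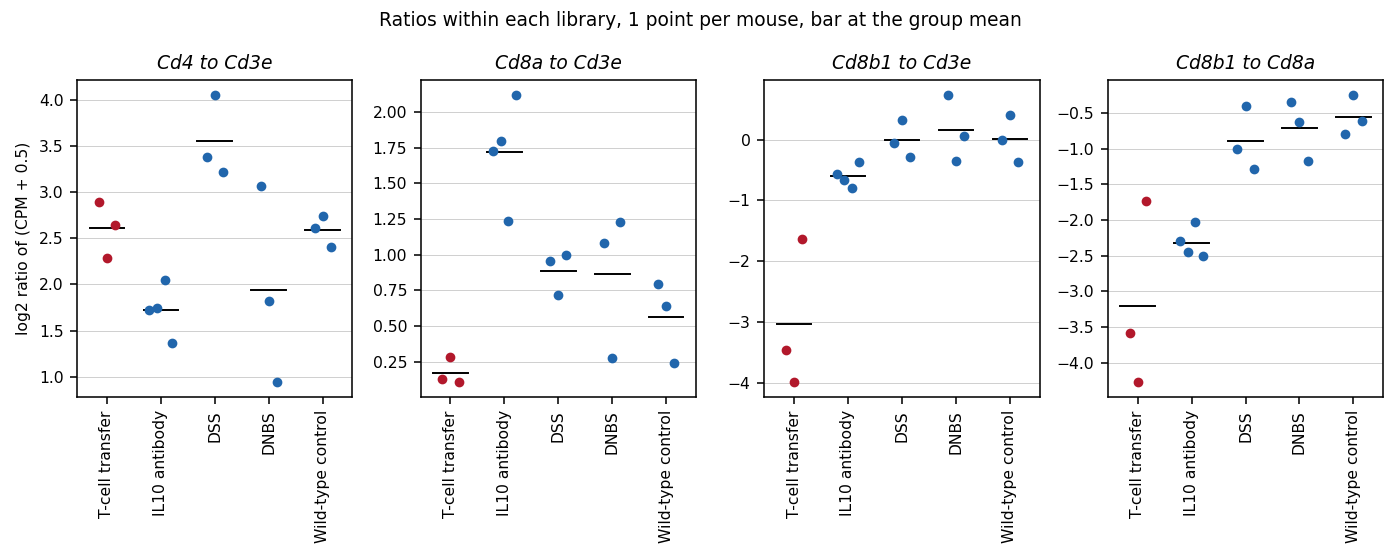
Log2 ratios of CPM + 0.5 within each library, 1 point per mouse and a bar at the group mean, for T-cell transfer mice (red) and the replete groups (blue). In Cd8b1 to Cd3e the red points, -3.99 to -1.63, lie below every blue point, and in Cd4 to Cd3e they lie among them.

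In IL10 antibody mice all 10 genes were higher than in wild-type controls, against 27.2% of all genes called higher and 26.1% lower. None of the 10 overlapped between the groups, as 27.6% of all genes did not in this direction and 28% in the other. Cd8a rose most: it was 16.8, 19.3, 20.8 and 19.4 CPM in the antibody mice and 1.29, 0.799 and 1.64 CPM in the controls (log2 difference 3.94 ± 0.53, adjusted p = 3.4e-06, edgeR). Cd8b1 was 3.03, 3.12, 4.72 and 3.03 CPM, above all wild-type, TCT and DSS mice, a log2 difference from wild-type mice of 2.35 ± 0.57. Cd3g rose by 3.65 ± 0.46, Cd3d by 3.37 ± 0.56, Cd3e by 2.98 ± 0.57 and Cd4 by 1.66 ± 0.37.

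Antibody mouse 3 held the highest level of all 10 genes, as it did of the summed B-cell markers, at 290.8 CPM against 101.0, 121.9 and 33.2 CPM in mice 1, 2 and 4. In antibody mouse 4, whose B-cell sum was the lowest of the replete mice but DNBS mouse 14, the 10 genes summed to 110.8 CPM, within the 105.1 to 117.0 CPM of mice 1 and 2. The B-cell markers as a list were not called in IL10 antibody mice in either direction (0 of 6), and 4 of 7 mononuclear phagocyte markers were higher. Of 7 innate lymphoid and natural killer markers 3 were higher and 1 lower. Of 9 colon tissue markers 8 were called: the epithelial genes Epcam (0.61 ± 0.12), Krt8 (0.66 ± 0.14), Vil1 (1.06 ± 0.14), Muc2 (1.53 ± 0.26) and Cdx2 (4.93 ± 0.90) were higher and the muscle genes Acta2 (-1.18 ± 0.21), Myh11 (-1.46 ± 0.33) and Des (-0.68 ± 0.29) lower, as log2 differences. The part of these markers in the result was not tested.

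DSS mice showed a smaller rise. Of the 10 genes 6 were higher than in wild-type controls (17.7% of all genes called higher, 16.3% lower): Cd247, Cd4, Cd3g, Cd8a, Cd3d and Lck. Cd4 was 19.8, 22.5 and 27.8 CPM, all above the controls (log2 difference 1.82 ± 0.39, adjusted p = 0.000942, edgeR), and kept its call whichever DSS or wild-type mouse was left out. Cd247 was 3.08, 1.64 and 6.87 CPM against 0.914, 1.20 and 0.656 CPM (2.03 ± 0.53, adjusted p = 0.00466). Lck, at 10.4, 6.35 and 15.4 CPM, overlapped the controls at 5.33, 2.80 and 7.21 CPM. Cd3e (1.17 ± 0.61, adjusted p = 0.139), Cd8b1, Cd28 and Cd5 did not pass.

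Of the 6 calls, Lck was lost with DESeq2 (adjusted p = 0.0610) and with the DSS and wild-type mice fitted alone (edgeR, 0.112), which also lost Cd8a (0.0615) and Cd3d (0.0511). Upper-quartile scaling lost Cd3d (edgeR adjusted p = 0.0523). Other calls were gained. Cd28 passed with DESeq2 (adjusted p = 0.0467) and with another filter on low counts (edgeR, 0.0479). Cd8b1 passed with the DSS and wild-type mice fitted alone (edgeR, 0.0487). The count also rested on few mice. Mouse 8 had the highest level of 9 of the 10 genes, and without it 1 gene, Cd4, was called. Without wild-type mouse 1 or 2 there were 3. The same mouse had the highest B-cell sum, 381.3 CPM against 255.6 and 122.7 CPM in the other DSS mice and 77.3 to 127.9 CPM in wild-type controls, and 4 of 6 B-cell markers, 5 of 7 phagocyte markers and 4 of 7 innate lymphoid and natural killer markers (with 1 lower) were higher in DSS mice. Their part in the result was not tested.

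No gene was called in DNBS mice in either direction, against 3.95% of all genes called higher and 2.21% lower. At an unadjusted p under 0.05 the count was also 0 of 10, and DESeq2 called 0. The largest estimate was -0.74 ± 0.40 for Cd4 (adjusted p = 0.259, edgeR), with 6.21, 2.09 and 3.41 CPM in DNBS mice. The mice differed among themselves: Cd3e was 0.298, 0.232 and 1.53 CPM in mice 11, 14 and 16. Mouse 14 was lowest for all 10 genes and mouse 16 highest for 9, and their B-cell sums were 29.2 and 89.5 CPM.

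The effects of DSS, DNBS and IL10 antibody on the same wild-type controls were unequal for all 10 genes (edgeR quasi-likelihood F test, adjusted p between 6.92e-06 and 0.00798), where 56.8% of all genes were called. The mean log2 ratio of Cd8a to Cd3e was 1.72 ± 0.37 (SD, n = 4) in IL10 antibody mice, 0.89 ± 0.15 (SD, n = 3) in DSS, 0.86 ± 0.51 in DNBS and 0.56 ± 0.29 in wild-type mice. The ratio of Cd4 to Cd3e was 1.72 ± 0.28 in IL10 antibody mice, 3.55 ± 0.44 in DSS, 1.95 ± 1.07 in DNBS and 2.58 ± 0.17 in wild-type mice. With 0.5 CPM added to both genes, all DSS mice lay above and all IL10 antibody mice below the wild-type mice. Without this addition DSS and wild-type mice overlapped. Cd4 and Cd3e had 348 and 32 counts in DSS mouse 8, and 76 and 5 counts in wild-type mouse 2. These ratios were not tested between the models.

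The models without T cells of their own came last. In TRUC mice 4 of the 10 genes were higher than in Rag2 controls (22.4% of all genes called higher, 23.4% lower): Cd3g, Cd8a, Cd3d and Lck. Cd8a was 1.11, 0.978, 0.733 and 0.407 CPM in TRUC mice against 0, 0 and 0.0755 CPM, which is 39 counts against 1, a ratio of 30.6 with a counting interval from 5.17 to 1240. Cd3g was 1.40, 0.978, 1.74 and 0.976 CPM against 0, 0.229 and 0.226 CPM (log2 difference 2.93 ± 0.72, adjusted p = 0.00218, edgeR). Both separated every TRUC mouse from every control, as did 3 of the 10 genes in all against 28.8% of all genes, and Cd8a in TRUC mice reached the range of wild-type controls.

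Cd3d had 0, 6, 4 and 2 counts in TRUC mice, at least 3.13-fold above controls without a count, and its call (adjusted p = 0.0471) was lost without any of the 3 Rag2 controls or without TRUC mouse 3, 4 or 5. Lck was 4.50, 5.42, 5.95 and 3.58 CPM against 2.03, 1.38 and 1.74 CPM (1.50 ± 0.39, adjusted p = 0.00323). Cd3e had 0, 2, 0 and 0 counts and Cd5 1, 0, 0 and 0, levels at which no difference was detectable at this depth. Cd28 did not pass in TRUC mice (-0.52 ± 0.51, adjusted p = 0.420). Beside these changes 4 of 7 innate lymphoid and natural killer markers were higher, among them Ncr1, the NKp46 receptor (log2 difference 2.02 ± 0.55, adjusted p = 0.00463), and 6 of 7 phagocyte markers, while 0 of 6 B-cell markers were called. Their part in the result was not tested.

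Anti-CD40 mice gave no call among the 10 genes in either direction against the labelled Rag1 controls (10.9% of all genes higher, 10.7% lower), and DESeq2 gave 0. At an unadjusted p under 0.05 Cd3g and Cd8a were above and Cd28 below the controls. Cd28 had 1, 6 and 4 counts in anti-CD40 mice and 7, 13 and 14 in the controls, without overlap, as for 20.4% of all genes in this direction (log2 difference -1.56 ± 0.61, adjusted p = 0.0704, edgeR). Cd8a had 4, 8 and 4 counts against 1, 1 and 0, a ratio of 8.28 with a counting interval from 1.95 to 74.3 (adjusted p = 0.0704).

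The mean effect of colitis in replete mice (DSS, DNBS and IL10 antibody) was compared with that in Rag-deficient mice (TRUC and anti-CD40). The TRUC effect holds the loss of Tbx21 as well as colitis. None of the 10 genes differed past the threshold. Of all genes, 0.967% passed with a larger effect in replete mice and 0.559% with a smaller one. Where Rag-deficient counts were near 0 the SEs were wide, at 1.97 for Cd3e, 1.40 for Cd3d, 1.00 for Cd8b1 and 0.88 for Cd5. A difference in these genes could have gone undetected. Cd28 came nearest, with a mean log2 effect of 1.01 in replete and -1.04 in Rag-deficient mice, a difference of 2.05 ± 0.56 (adjusted p = 0.0591, edgeR). It was also the only one of the 10 at an unadjusted p under 0.05 and the 1 gene called by DESeq2.

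Ordered by mean CPM, TCT mice came first for 8 of the 10 genes and IL10 antibody mice for Cd8a and Cd8b1. For Cd3e, Cd3d, Cd3g, Cd247, Cd28 and Lck the ranges of TCT and IL10 antibody mice overlapped, and for Cd4 and Cd5 all TCT mice lay above all mice of the next group. IL10 antibody mice came second for Cd3e, Cd3d, Cd3g, Cd247, Cd28, Lck and Cd5, and DSS mice for Cd4 and Cd8b1. DSS mice lay apart from IL10 antibody mice in Cd3e, Cd3d, Cd3g, Cd8a, Cd8b1 and Lck and overlapped them in Cd247, Cd4, Cd28 and Cd5. DNBS and wild-type mice overlapped in all 10 genes.

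Per kb of exon, levels can be set side by side between genes. In TCT mice Cd4 was at 13.1 ± 3.84 CPM per kb (SD, n = 3), Lck at 12.0 ± 2.70, Cd3d at 10.1 ± 5.28, Cd3g at 9.66 ± 2.68 and Cd5 at 4.43 ± 2.24, while Cd8a was at 2.59 ± 0.88 and Cd8b1 at 0.45 ± 0.48. In IL10 antibody mice Cd3d led with 8.51 ± 1.38 (SD, n = 4), Cd8a at 5.25 ± 0.47 lay beside Cd4 at 5.18 ± 2.78, and Cd8b1 at 2.34 ± 0.56 lay above Cd3e at 1.38 ± 0.49. In wild-type controls all lay between 0.173 (Cd247) and 1.75 (Lck). Long annotated exons lower the values of Cd28 (6122 bases), Cd247 (5329), Cd5 (4928), Cd3e (4080) and Cd4 (4032) on this scale. The shortest were those of Cd8b1 (1483) and Cd3d (1815).

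**Figure D4:**
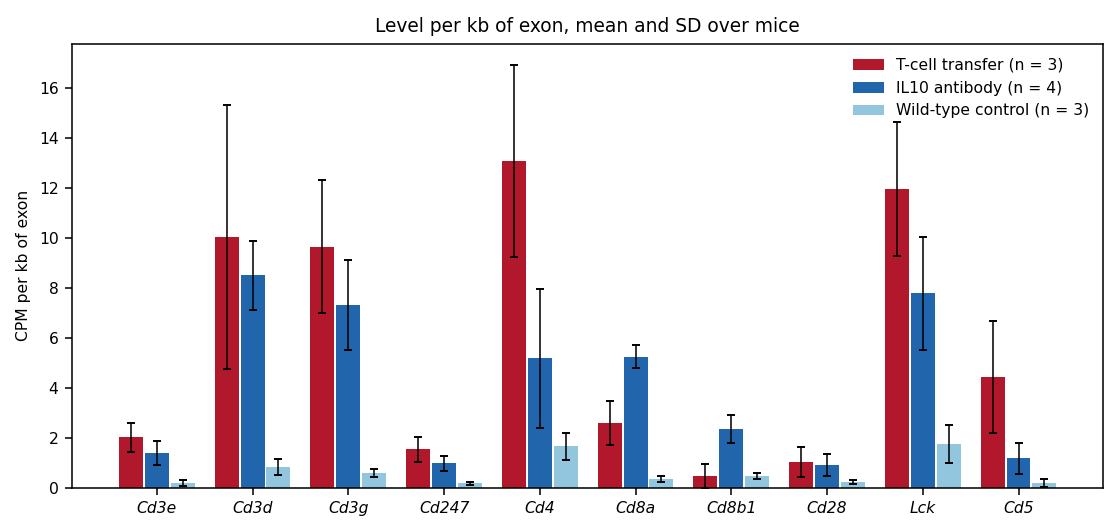
Mean level per kb of exon (CPM per kb, linear axis from 0) with SD over mice, in T-cell transfer, IL10 antibody and wild-type control mice. Cd4 is the highest bar after T-cell transfer at 13.1, Cd8a and Cd4 are level in IL10 antibody mice at 5.25 and 5.18, and Cd8b1 after transfer is at 0.45.

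The receptor chains themselves, as 7 constant region genes, were set beside the CD3 chains. Of the 7, all were higher in replete than in Rag-deficient mice, against 22.1% of all genes called higher. Against wild-type mice 6 were higher in TCT (16.9%), 7 in IL10 antibody (27.2%), 4 in DSS (17.7%) and 0 in DNBS mice (3.95%). Between untreated groups 2 of the 7 were higher in wild-type mice than in Rag2 controls (4.86%) and 3 than in labelled Rag1 controls (6.18%). In TRUC mice 4 were higher than in Rag2 controls (22.4%): Trac, Trbc1, Tcrg-C2 and Tcrg-C4. Of these, Tcrg-C2 had 6 counts in all TRUC mice together against 0 in Rag2 controls, and Trac 14 against 2, so these calls rest on few reads. In TCT mice 6 were higher than in labelled Rag1 controls (16.1%), and in anti-CD40 mice 0 (10.9%). Trac, the alpha chain constant gene, had 0 to 5 counts in Rag-deficient mice, 13 to 152 in replete mice and 99 to 205 in TCT mice. Trdc, the delta chain constant gene, had 1 to 2 counts in TCT mice and was not called against wild-type mice (log2 difference -0.70 ± 1.05, adjusted p = 0.643, edgeR), whereas Tcrg-C2, a gamma chain constant gene, had 75 to 153 counts there (5.23 ± 0.53, adjusted p = 3.32e-06). In IL10 antibody mice both were higher than in wild-type mice, by 2.79 ± 0.70 and 4.48 ± 0.52. Trbc1 had 6 to 43 counts in Rag-deficient mice, where Trac was near 0. Some of the beta and gamma constant genes have near-identical copies, so reads of these may be split between them or left out of the counts.

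Of 16 genes of proximal receptor signalling, all were higher in replete than in Rag-deficient mice (median log2 difference 2.11). Against wild-type mice 15 were higher in TCT, 14 in IL10 antibody, 9 in DSS and 0 in DNBS mice. In wild-type mice 8 were higher than in Rag2 controls and 7 than in labelled Rag1 controls. Against their own controls 15 were higher in TCT (16.1% of all genes), 4 in TRUC (22.4%) and 3 in anti-CD40 mice (10.9%). Anti-CD40 mice had no call among the 10 genes. None of the 16 was lower in any of these comparisons. The listed genes did not move alike. Ptprc averaged 65.5 CPM in TRUC mice against 11.5 in Rag2 controls, and 31.1 in anti-CD40 mice against 11.6 in labelled Rag1 controls. Lat averaged 0.508 against 0.350 CPM and 0.419 against 0.522 CPM in the same order. The shares of all genes called higher, here and for the next list, are those given for the constant region genes. Lat, the adaptor phosphorylated by ZAP70, was 4.20 ± 0.37 higher in TCT than in wild-type mice, Themis 4.62 ± 0.42 and Trat1 5.87 ± 0.52. Cd27, a costimulatory receptor of the TNF receptor family, was the 1 gene not called there (0.26 ± 0.43). Among 7 genes of T-cell identity and homing, 5 were higher in TCT than in wild-type mice, 4 in IL10 antibody, 4 in DSS and 0 in DNBS mice. Replete mice had 5 higher than Rag-deficient mice. In wild-type mice 1 was higher than in Rag2 controls and 2 than in labelled Rag1 controls. Against their own controls 7 were higher in TCT mice, while TRUC and anti-CD40 mice each had 2 higher and 1 lower. Of all genes 23.4% were lower in TRUC and 10.7% in anti-CD40 mice.

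B-cell markers separated the groups differently from the 10 genes. In TCT mice the 6 markers summed to 4.63, 2.31 and 2.69 CPM. This was above the Rag-deficient mice at 0.860 to 1.71 CPM but far below the replete mice at 29.2 to 381.3 CPM. All 6 were lower in TCT mice than in wild-type controls, against 13.8% of all genes. The 10 T-cell genes summed to 258.8, 172.2 and 145.8 CPM in the TCT mice, against 5.05 to 15.6 CPM in Rag-deficient and 9.22 to 178.1 CPM in replete mice. Of 9 colon tissue markers 2 were higher and 1 lower in TCT than in wild-type mice, near the 16.9% and 13.8% of all genes.

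**Figure D5:**
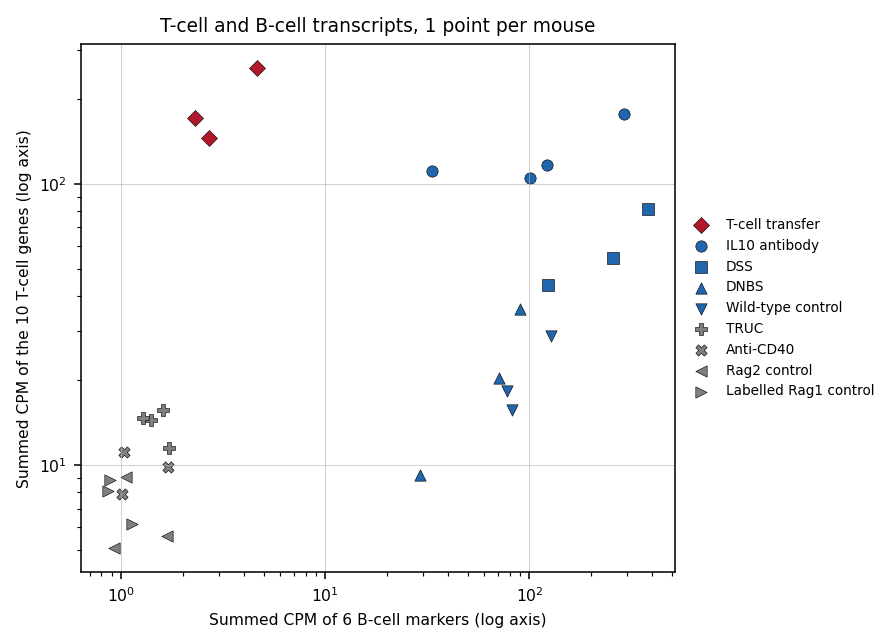
Summed CPM of the 10 T-cell genes against the summed CPM of 6 B-cell markers, both on log axes, 1 point per mouse. T-cell transfer mice (red) combine 145.8 to 258.8 CPM of T-cell genes with at most 4.63 CPM of B-cell markers, replete mice (blue) hold both, and the other Rag-deficient mice (grey) hold little of either.

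By the root mean square distance between centred log2 CPM profiles over the 29 mice, the tested genes most like the mean profile of the 10 were Sh2d2a (0.41), Trbc2 (0.45), Apol7e (0.50), Cd2 (0.51), Sit1 (0.51), Zap70 (0.53), Gimap3 (0.53), Trac (0.53), Ptprcap (0.53) and Spn (0.53). The 10 genes themselves lay between 0.53 (Cd247) and 1.02 (Cd8b1) from their mean. Sh2d2a, which encodes an adaptor that binds LCK, had 100 to 201 counts in TCT mice, 62 to 168 in IL10 antibody mice, 13 to 21 in wild-type controls and 2 to 8 in the untreated Rag controls.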

How the data were processed

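Colon RNA of 29 mice was sequenced from poly(A) libraries. The authors deposited a table of raw read counts per gene, made per the labels with Trimmomatic, HISAT2 and HTSeq on GRCm38 (versions not given in the sources used here). No source used here states strand, batch or date. The counts were tested as deposited with edgeR 4.0.16 (R 4.3.3): TMM scaling, a mean of 3 or more counts per gene (18616 of 54532 listed, of which 20470 had no count), 1 quasi-likelihood fit over all 9 groups without covariates, and Benjamini-Hochberg adjustment over all genes tested at 0.05. SEs were taken from the F statistic. The 92 spike-in entries held 0 counts. Symbols and exon lengths came from GENCODE M21 by Ensembl identifier (54409 matched). Fold changes against a group at 0 used 3 counts over the group, and groups with 1 to 3 counts an exact 95% interval of the count ratio, both covering counting error only. Ratios were compared by exact permutation in Python 3.11.15 with scipy 1.17.1 and adjusted over 6. Scripts were tested on simulated data. Within groups no pair of libraries was a repeat, since the lowest chi-square per degree of freedom over genes among 33 pairs was 3.65.

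The 10 genes, the gene lists and the motifs were chosen with earlier results of these data known. The text names the 10 genes, genes of the lists and the 10 genes most like the mean profile, and some listed genes are not reported here. Groups follow the labels. Alternatives were RLE and upper-quartile scaling, no or another filter on low counts, DESeq2 1.42.0, a threshold of 0.01, fits of the compared groups alone, other controls, other pseudocounts, a replicate block, and leaving out each mouse.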

Additional observations from a re-analysis of the deposited data

Results flagged for a closer look

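Within groups of 4 mice, 1 mouse stood far from the others by Dixon's criterion in 3 of 32 tests (20 of gene levels and 12 of ratios between genes), where chance gives about 1 in 20. Cd8b1 was 4.72 CPM in IL10 antibody mouse 3 and 3.03, 3.12 and 3.03 CPM in the other mice of that group. Cd3e was 0.178 CPM (2 counts) in TRUC mouse 3 and Cd5 0.0737 CPM (1 count) in TRUC mouse 2, with no count in the other TRUC mice. With all other mice at 0 any count meets the criterion, so these 2 rest on 1 or 2 reads and cannot be read against that rate.

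The effects of DSS, DNBS and IL10 antibody against the shared wild-type controls differed for all 10 genes by the edgeR quasi-likelihood F test, as they did for 56.8% of all genes. The adjusted p was 6.92e-06 for Cd3g, 7.32e-06 for Cd8a, 3.65e-05 for Cd4, 0.000128 for Lck, 0.000168 for Cd3e, 0.00035 for Cd3d, 0.000425 for Cd28, 0.00199 for Cd5, 0.00324 for Cd247 and 0.00798 for Cd8b1. For Cd4 the IL10 antibody (1.66) and DSS (1.82) estimates lay above the wild-type level and the DNBS estimate (-0.74) below it, on the log2 scale. For Cd8a the estimates were 3.94, 1.51 and 0.62 in the same order.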

How the results depend on the processing

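No called result changed direction under any alternative run. With a threshold of 0.01 the genes higher in wild-type mice than in Rag2 controls fell to 4 and those higher in DSS mice to 3. Anti-CD40 mice against labelled Rag1 controls gave 2 higher (Cd3g and Cd8a) when these groups were fitted alone and 1 (Cd8a) against Rag2 controls. DESeq2 called 1 gene (Cd28) for the difference in colitis effect. With a pseudocount of 2 the differences in the log2 ratios of Cd8a to Cd3e and of Cd8b1 to Cd8a were -0.612 and -1.20, and without untreated wild-type mice the latter was -1.79, none of them past the threshold. The cause was not tested.

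Leaving out each mouse in turn gave 1 to 7 genes higher in DSS mice, 4 to 6 in wild-type mice against Rag2 controls and 5 to 7 against labelled Rag1 controls, 3 to 4 in TRUC mice and 0 to 1 for the difference in colitis effect (1 without DNBS mouse 14, IL10 antibody mouse 4 or labelled Rag1 control 2). The ratio differences ran from -0.959 to -0.802 for Cd8a to Cd3e, -3.58 to -2.40 for Cd8b1 to Cd3e, -2.72 to -1.45 for Cd8b1 to Cd8a and -1.18 to -0.396 for Cd28 to Cd3e. With fewer mice the smallest p that permutation can give is larger.

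Upper-quartile scaling moved the median log2 difference of all genes by -0.11 in TCT against wild-type mice, -0.17 in IL10 antibody mice and -0.11 in TRUC mice. Some groups share replicate numbers in the labels, but same-numbered mice did not deviate together (correlations of -0.081 to 0.104). With the number as a replicate block, 9 genes were higher in wild-type mice than in Rag2 controls, 9 than in labelled Rag1 controls, 10 in IL10 antibody mice and 4 in TRUC mice, where Cd247 was called and Cd3d fell under the count minimum. Genes near 3 counts per group cannot be compared more closely at this depth.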
